A study of Mus musculus with 9 samples.

Results

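The subunits of the Arp2/3 complex and the Rac regulator Chn1 were examined in hippocampal RNA of Angelman syndrome model mice given an inhibitor of miR-134. The 10 genes, taken by name from the 54532 genes of the deposited tables, were Arpc1a, Arpc1b, Arpc2, Arpc3, Arpc4, Arpc5, Arpc5l, Actr2, Actr3 and Chn1. Arpc2 and Chn1 were brought into the group because the study lists both as raised in these same samples, so their differences between the groups are given as a description and were not tested. The other 8 genes were included as the remaining subunits of the complex, and their differences were tested. Actr3b, an alternative form of Actr3, and Chn2, the second chimaerin gene, are given beside them as relatives and are not among the 10.

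All 9 mice were N4 Ube3am-/p+, carrying a mutated maternal Ube3a allele and an intact paternal one on a background crossed to 129Sv/Ev mice. There was no wild-type group. At postnatal day 21 each mouse received 0.5 nmol of oligonucleotide into a cerebral ventricle, either Ant-134, an antisense inhibitor of miR-134 (5 mice), or Scr, a scrambled control (4 littermate mice). The mice were exposed to sound that can trigger seizures on days 22, 24 and 26, and the brains were taken 24 h after the last exposure, on day 27. Each library is the RNA of 1 hippocampus, on the injected side, of 1 mouse, and the labels give neither the sex of the mice nor the outcome of the sound tests. Between 28583298 and 38431058 reads per Ant-134 library and between 31985959 and 41978113 per Scr library were counted on genes. Ube3a, the mutated gene, is altered in both groups and therefore does not check the treatment labels, and its mean level was 90.2 CPM (counts scaled to the library total) with Ant-134 and 92.4 with Scr. All 10 principal neuron markers of the hippocampus that were examined, among them Neurod6 and Wfs1, were detected.

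The Arp2/3 complex starts new actin filaments as branches on the sides of existing ones. Actr2 and Actr3 encode the actin-related proteins Arp2 and Arp3, which form the first units of the new branch, and the Arpc genes encode the subunits that hold them and bind the mother filament. On its own the complex is nearly inactive. It is switched on by proteins of the WASP and WAVE families, which act downstream of the small GTPases Cdc42 and Rac, and branched actin fills the heads of dendritic spines, the postsynaptic sites of most excitatory synapses. Chn1 encodes alpha-chimaerin, a GTPase-activating protein that returns Rac to its inactive state and that acts below the EphA4 receptor in growing axons and in spines. miR-134 is a brain-enriched microRNA best known for limiting the size of dendritic spines through Limk1, a kinase that protects actin filaments from severing.

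The sequence that Ant-134 opposes is that of miR-134-5p, and it is shown because its seed determines which 3' UTRs could pair with it. The mature miRNA lies on the plus strand at chr12:109734145-109734166 (RefSeq, GRCm38.p6), and bases 2 to 8, the seed, are in capitals below.

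miR-134-5p: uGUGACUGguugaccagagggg

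The strings CAGTCAC and AGTCACA were searched on the transcribed strand of a 3' UTR annotated in GENCODE M21. Both overlap in the 8-base form CAGTCACA. Of the 10 genes, 2 held a site, Actr2 and Arpc5l, and among the relatives Actr3b held one. Neither Arpc2 nor Chn1 held one of these letter strings in an annotated 3' UTR. Of the 15308 tested genes with a 3' UTR, 23.2% held at least 1 such site, so the share among the 10 genes was near that of all genes. The 3 sites are shown with the bases around them, with the match in capitals.

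Actr2: ggtgcgtgactCAGTCACAgtggaatccct

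Arpc5l: agcaggctgtgCAGTCACtggacagaaatg

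Actr3b: taagcatgagtAGTCACAgagttcatggat

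The Actr2 site at chr11:20063015-20063022 on the minus strand was the only 8-base match, a form held by 5.43% of these genes. It starts 1667 bases after the stop codon in a 3' UTR of 2385 bases. The Arpc5l site at chr2:39013792-39013798 lies in the 3' UTR of 1 transcript that is not annotated as a standard protein-coding one, and it is not in the longest 3' UTR of the gene. The Actr3b site at chr5:25850414-25850420 lies 468 bases after the stop codon. These are letter matches only, and binding of the miRNA was not measured.

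Transcript levels per length were compared first, in FPKM (fragments scaled to gene length and library total). The length is that of all annotated exons of a gene together, and the order of the genes depends on it. It was 5115 bases for Arpc1b and 4498 for Arpc5l, against 2567 for Arpc1a and 2276 for Arpc5. Arpc2, which with Arpc4 forms the structural core of the complex, was the most abundant member, at 117.7 ± 6.73 FPKM over all samples (SD, n = 9). Chn1 followed at 100.6 ± 5.70 FPKM, and Arpc5, a small outer subunit, at 94.3 ± 4.48. Arpc1a, the main form of the WD40 subunit that contacts the activators, had 71.2 ± 2.51 FPKM, and Actr2 had 69.8 ± 2.00. Actr3 with 51.3 ± 1.29, Actr3b with 50.4 ± 2.99, Arpc4 with 47.4 ± 0.819 and Arpc3 with 39.2 ± 1.23 formed the middle of the order. The alternative forms Arpc5l and Arpc1b were the lowest members at 16.7 ± 0.885 and 11.3 ± 1.36 FPKM. They were also the lowest in raw counts, with means of 2548 and 1972. The mean FPKM of Arpc2 was 10.4 times that of Arpc1b.

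**Figure D1:**
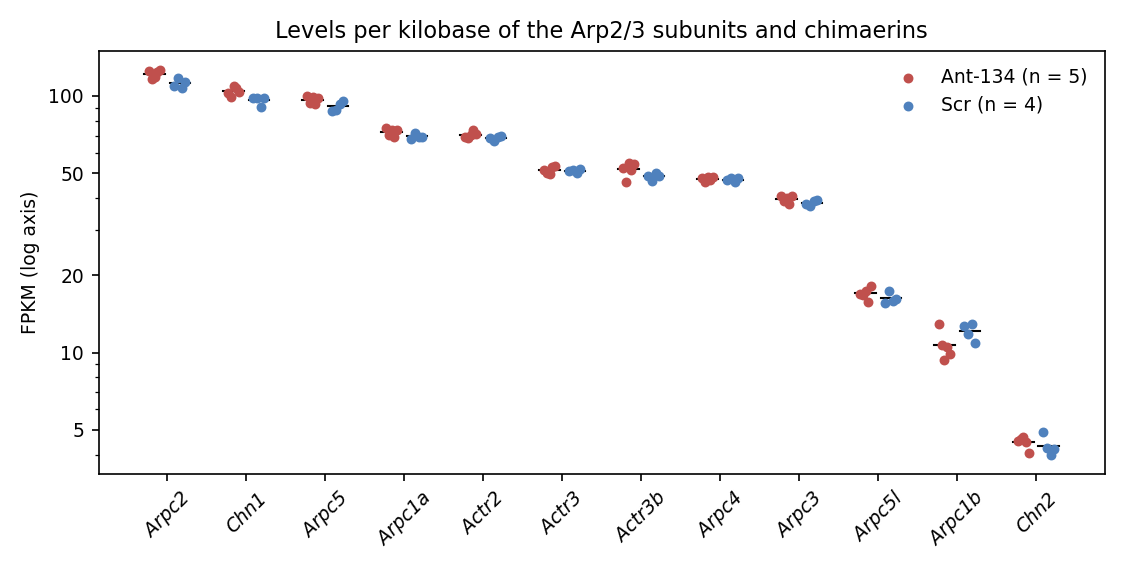
Level of the 10 genes and their relatives Actr3b and Chn2 in FPKM on a log axis, with 1 point per mouse and a line at each group mean. The order runs from Arpc2 with a mean of 117.7 to Arpc1b with 11.3 and Chn2 with 4.41, and both treatment groups occupy the same part of the scale for every gene.

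Neighbours in this order were not all distinct. The ranges of Arpc2 and Chn1 overlapped, although Arpc2 was above Chn1 in 9 of 9 libraries. Chn1 was above Arpc5 in 8 of 9 libraries and Actr3b above Arpc4 in 8 of 9. Arpc1a was above Actr2 in 5 of 9 and Actr3 above Actr3b in 6 of 9, so these last 2 pairs could not be ordered. Each other pair of neighbours had ranges that did not meet. Chn1 exceeded Chn2 by 22.8 times in mean FPKM.

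The genes also differed in their spread in CPM over all mice, which includes any difference between the groups. Arpc4 was the steadiest, with a coefficient of variation of 1.72% over the 9 mice, followed by Actr3 with 2.50% and Actr2 with 2.88%. Arpc1b had the widest spread with 12.1%, against at most 5.66% for the other members.

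Arpc2 (ENSMUSG00000006304, chr1:74236084-74268209 on GRCm38) was higher on average with Ant-134. In CPM of the scaled libraries, which are used for all comparisons between groups below, its values were 256, 239, 245, 255 and 258 in Ant-134 mice 1 to 5. In Scr mice 1 to 4 they were 224, 243, 220 and 234. The means were 250.5 ± 8.40 (SD, n = 5) and 230.4 ± 10.2 (SD, n = 4), and the log2 fold change was 0.12 (SE 0.044). The groups overlapped, because Scr mouse 2 exceeded Ant-134 mouse 2. Since this difference chose the gene, it carries no test.

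Chn1 (ENSMUSG00000056486, chr2:73610660-73775346, minus strand) had values of 656, 634, 703, 691 and 662 CPM in the Ant-134 mice. In the Scr mice they were 627, 632, 581 and 634. Chn1 was the only one of the 10 genes in which every Ant-134 mouse lay above every Scr mouse, a pattern found in 0.647% of the 19782 genes tested and in 1.54% when both directions are counted, and the lowest Ant-134 value and the highest Scr value were nearly equal. The means were 669 ± 27.7 and 618 ± 25.3 CPM and the log2 fold change was 0.11 (SE 0.045), again without a test because the gene was chosen on it. Scr mouse 3 had the lowest value, below the other 3 Scr mice by more than they differed among themselves. Exons of Chn1 share 220 bases with the antisense gene Chn1os3, which had 138 to 236 counts per library against 19741 to 26750 for Chn1.

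The study selected genes at an unadjusted p value below 0.05 in DESeq2, a threshold that 1.08% of the genes tested passed in the higher direction and 1.66% in the lower. On that scale Arpc2 had 0.00532 and Chn1 had 0.00871, which are given as the values behind the choice and not as tests. Of the others, Arpc5 with 0.0402 and Arpc1b with 0.0480, the latter in the lower direction, lay just inside that threshold. The nearest one outside it was Arpc1a with 0.137. The list of the study kept raised genes that were predicted miR-134 targets, had responded to Ant-134 before or were linked to epilepsy. In that list Arpc2 and Chn1 are marked as linked to epilepsy and not as miR-134 targets.

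**Figure D2:**
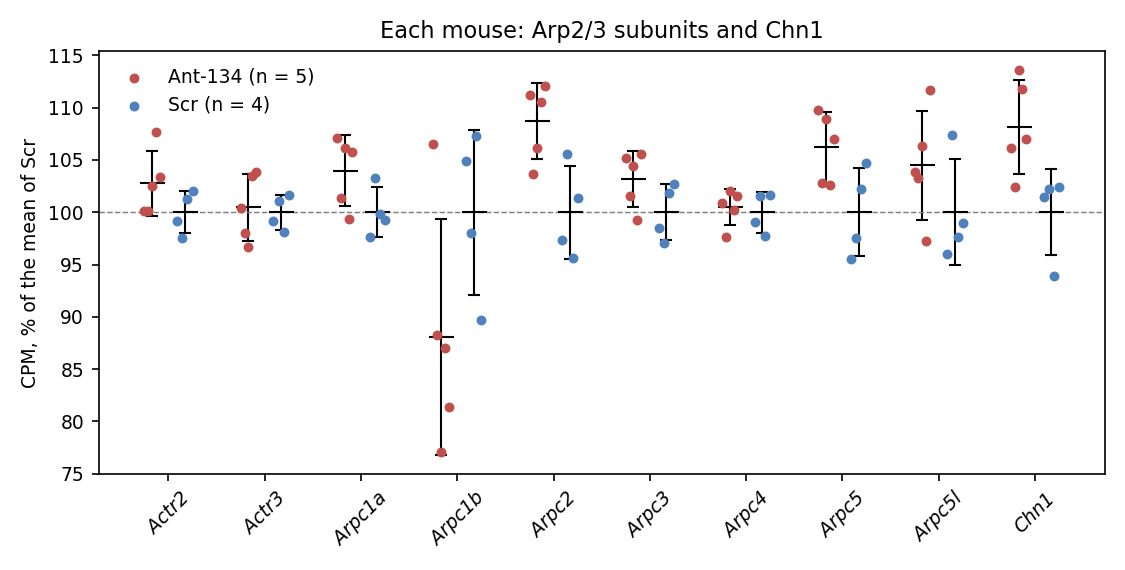
CPM of each gene in each mouse as a percentage of the mean of Scr (dashed line), with points for single mice, horizontal marks for group means and bars of 1 SD, on an axis that does not start at 0. Chn1 is the gene whose groups separate, Arpc2 overlaps by 1 Scr mouse, and the lowest values of Arpc1b are in the Ant-134 group.

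Among the 8 subunits that were not chosen on their values, 0 were called in edgeR at an unadjusted p below 0.05, against 4.18% of the 19782 genes tested. With Benjamini-Hochberg adjustment edgeR called 0 of all genes, where 827 passed before adjustment and DESeq2 called 16 after it. After adjustment edgeR called 17 genes without Ant-134 mouse 1, 14 with no filter on low counts and 2 with a replicate block. It called 0 or 1 in its other fits. The adjusted p value of every one of these subunits in edgeR was 0.998. The log2 fold change was above 0 for 7 of the 8, against 51.2% of all genes tested, with a median of 0.042 against 0.0026.

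Arpc5 (ENSMUSG00000008475, chr1:152766542-152775597) had the largest upward difference of these 8. Its values were 230, 215, 228, 215 and 224 CPM with Ant-134 and 200, 204, 214 and 219 with Scr. Ant-134 mice 2 and 4 lay below the highest Scr mouse, so the groups overlapped. The log2 fold change was 0.087 (SE 0.043) with an unadjusted edgeR p of 0.0615, and the 95% interval of the fold change ran from 0.997 to 1.13. In limma Arpc5 was also called, at an unadjusted p of 0.0434 on log2(FPKM + 1) and 0.0419 on log2(FPKM + 0.1), where 1.9% and 1.99% of the genes tested were called higher. Its alternative form Arpc5l (chr2:39005348-39015877) had a log2 fold change of 0.063 with an unadjusted edgeR p of 0.219. Values of Arpc5l were 71.9 to 82.5 CPM in Ant-134 mice and 70.9 to 79.3 in Scr mice. Its exons share 62 bases with the opposite-strand ribosomal gene Rpl35, which had 2360 to 3914 counts per library against 2195 to 3356 for Arpc5l.

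Arpc1b (ENSMUSG00000029622, chr5:145114215-145130705), the form of the WD40 subunit that prevails in blood cells, was the only member with a fold change below 0. It had 66.6, 55.2, 48.2, 54.4 and 50.9 CPM with Ant-134 and 65.6, 61.3, 67.1 and 56.1 with Scr. In 4 of 5 Ant-134 mice the level was below that of every Scr mouse, whereas Ant-134 mouse 1 was level with the highest Scr mice. The log2 fold change was -0.18 (SE 0.086), the unadjusted edgeR p was 0.0536, and the 95% interval of the fold change ran from 0.774 to 1.00. Without Ant-134 mouse 1 the log2 fold change was -0.26 with an unadjusted edgeR p of 0.0012, and without Scr mouse 4 it was -0.23 with 0.0231. The other 7 of 9 fits that left out a mouse gave no call, with -0.14 and an unadjusted edgeR p of 0.115 without Ant-134 mouse 3 and -0.15 and 0.145 without Scr mouse 3. The opposite-strand gene Pdap1 covers 931 of the 5115 exonic bases of Arpc1b, and whether counting used the strand is not given in the sources used here. Pdap1 had 3047 to 4231 counts per library against 1353 to 2592 for Arpc1b.

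Because Arpc1b is abundant in microglia, the immune cells of the brain, microglial markers are given beside it. All 20 markers examined were detected and had fold changes below 0, with a median log2 fold change of -0.18, and 8 of them passed an unadjusted p value below 0.05 in edgeR, against 2.69% of all genes in this direction. Their summed level was 637 to 684 CPM in Ant-134 mice and 705 to 820 in Scr mice, with no overlap. Taken singly, 0 of the 20 markers had groups that did not overlap, against 0.895% of all genes in this direction. Ant-134 mouse 1, which had the highest Arpc1b of its group, had the lowest summed marker level of all 9 mice. In such tissue, fewer cells of a type and less RNA per cell cannot be told apart, and the part of the microglial markers in the values of Arpc1b was not tested. The 6 endothelial markers also had fold changes below 0, with a median of -0.13 and 0 calls in edgeR, and the 6 astrocyte markers had a median of -0.0083 and 0 calls. The 6 oligodendrocyte markers had a median of 0.021 and 0 calls, and their summed level ran from 7252 CPM in Ant-134 mouse 5 to 12128 in Ant-134 mouse 1, against 9091 to 9739 in Scr mice.

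**Figure D3:**
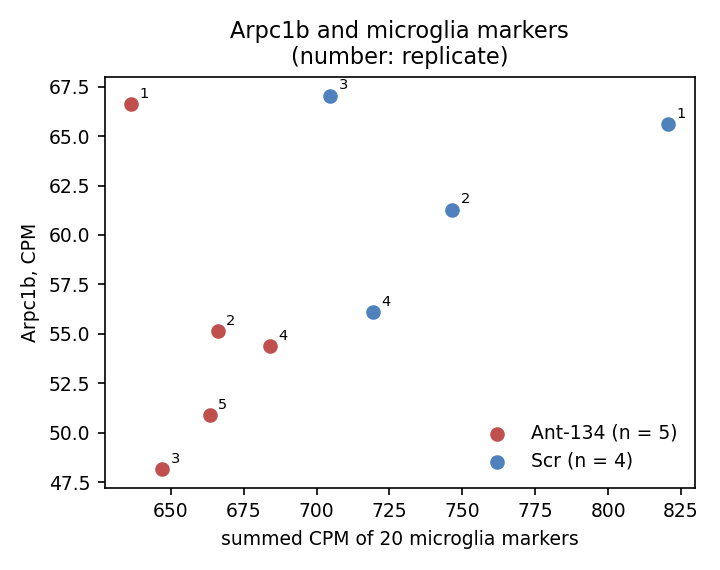
Arpc1b in CPM against the summed CPM of 20 microglial markers, 1 numbered point per mouse in each group. The groups separate along the marker axis, at 637 to 684 against 705 to 820 CPM, and overlap along the Arpc1b axis, where Ant-134 mouse 1 lies at 66.6.

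The remaining subunits had smaller fold changes. Arpc1a (chr5:145083830-145108761), which lies next to Arpc1b on the same strand, had 179 to 193 CPM with Ant-134 and 176 to 187 with Scr. Its log2 fold change was 0.056 (SE 0.040) with an unadjusted edgeR p of 0.184. Arpc3 (chr5:122391878-122414184), a small subunit, had a log2 fold change of 0.045 with an unadjusted edgeR p of 0.259, and its 95% interval of the fold change was 0.974 to 1.09. The groups overlapped for both genes.

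Arpc4 (chr6:113378115-113390448), the partner of Arpc2 in the core of the complex, had nearly equal means in both groups. It had 112, 108, 113, 111 and 112 CPM with Ant-134 and 110, 112, 108 and 113 with Scr. The log2 fold change was 0.0065 with an unadjusted edgeR p of 0.862, and the 95% interval of the fold change from 0.952 to 1.06 reaches a change in either direction. Arpc4 shares 283 exonic bases with the same-strand gene Ttll3, whose counts were 554 to 857 per library.

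The genes of the actin-related proteins also had small differences. Actr2 (chr11:20062304-20112913, minus strand), the gene with the 8-base miR-134 site shown above, had 361, 362, 370, 389 and 373 CPM with Ant-134 and 358, 352, 366 and 368 with Scr. Its log2 fold change was 0.039 with an unadjusted edgeR p of 0.337 and a 95% interval of the fold change from 0.969 to 1.09. Actr3 (chr1:125392905-125435727, minus strand) had 231 to 249 CPM with Ant-134 and 235 to 243 with Scr, with a log2 fold change of 0.0069 and an unadjusted edgeR p of 0.863. Actr3b (chr5:25759997-25850688) had a log2 fold change of 0.087 with an unadjusted edgeR p of 0.0992. The lowest Ant-134 value of Actr3b, 113 CPM, was below all Scr values. The 3 genes with a site therefore had log2 fold changes between 0.039 and 0.087, with 0 calls among them when all mice were included. With single mice left out, Actr2 ranged from 0.021 (without Ant-134 mouse 4) to 0.050, Arpc5l from 0.038 (without Ant-134 mouse 5) to 0.099 (without Scr mouse 2) and Actr3b from 0.066 to 0.12. Actr3b was called in 1 of these edgeR fits, without Ant-134 mouse 2, at an unadjusted p of 0.0124.

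**Figure D4:**
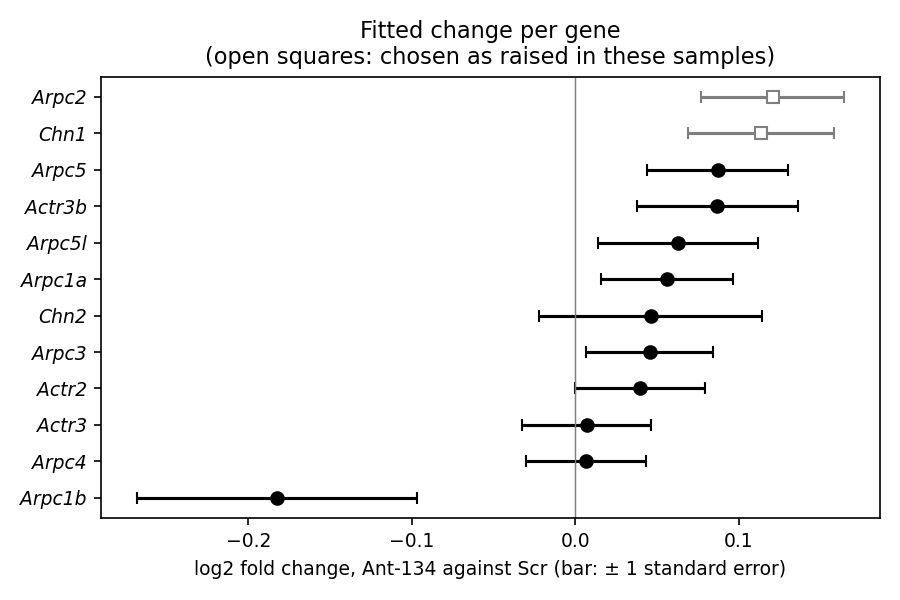
Log2 fold change of each gene, Ant-134 over Scr, with bars of 1 standard error from edgeR. Open squares mark Arpc2 and Chn1, which were chosen on this difference, and Arpc1b is the only gene below 0, at -0.18.

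Taking the 9 Arp2/3 subunits as a group, 8 had a log2 fold change above 0, with a median of 0.045. Per mouse, the median over the 9 subunits, relative to the Scr mean on the log2 scale, was 0.073, 0.020, 0.063, 0.0026 and 0.078 with Ant-134. With Scr it was -0.021, 0.015, -0.0023 and 0.024. Ant-134 mice 2 and 4 lay within the range of the Scr mice and the other 3 Ant-134 mice above it. Neuronal markers had medians of similar or larger size, with 7 of 8 general neuron markers above 0 and a median of 0.046, and 8 of 10 principal neuron markers above 0 and a median of 0.089. Each of these lists had 1 higher call in edgeR, against 1.49% of all genes, namely Snap25, which the study also lists as raised in these samples, and Dsp. The part of the neuronal markers in the subunit values was not tested. These subunits come from the same libraries and include Arpc2, so the values describe these mice and carry no test.

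The transcripts of alternative forms were compared as the share of each form in FPKM. Protein was not measured and the tissue holds several cell types, so these shares do not give the composition of the complex. They also depend on the gene lengths used. Mean raw counts over all mice were 1972 for Arpc1b and 6199 for Arpc1a, and 2548 for Arpc5l and 7263 for Arpc5. Arpc1b made up 14.7%, 13.1%, 11.2%, 13.2% and 11.8% of the Arpc1 transcripts with Ant-134 and 15.7%, 14.2%, 15.7% and 13.6% with Scr. The means were 12.8 ± 1.38% (SD, n = 5) and 14.8 ± 1.11% (SD, n = 4), and the difference of -1.99 percentage points had a p value of 0.0794 in a two-sided exact permutation test over all splits of the mice, whose smallest possible p value is 0.00794. Ant-134 mouse 1 lay inside the Scr range and the other 4 Ant-134 mice below it. Arpc5l made up 14.9 ± 0.533% of the Arpc5 transcripts with Ant-134 and 15.2 ± 0.907% with Scr, with an exact permutation p value of 0.659. Actr3b had a mean of 4125 raw counts over all mice and Actr3 had 8067, with gene lengths of 2425 and 4631 bases. Per length, Actr3b was about as abundant as Actr3. It made up 50.1 ± 1.66% of their summed FPKM with Ant-134 and 48.8 ± 0.995% with Scr, with an exact permutation p value of 0.198. That difference of 1.36 percentage points was 0.76 without Ant-134 mouse 3 and 1.89 without Ant-134 mouse 2. With Benjamini-Hochberg adjustment over the 3 shares, the adjusted p values were 0.238 for Arpc1b, 0.298 for Actr3b and 0.659 for Arpc5l. The share of Chn2 among the chimaerins, which contains Chn1 and was not tested, was 4.12 ± 0.251% and 4.31 ± 0.309%.

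Chn2 (chr6:54039554-54301810), which encodes beta-chimaerin, had 26.2 ± 1.49 CPM with Ant-134 and 25.4 ± 2.26 with Scr. Its log2 fold change was 0.046 with an unadjusted edgeR p of 0.512. The groups overlapped, and Ant-134 mouse 5 had the lowest value of its group.

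Genes that switch the complex on or off, or that act around chimaerin, were then examined as 79 genes in 8 lists. In edgeR 11 of them, or 13.9%, passed an unadjusted p value below 0.05, against 4.18% of all genes, and 9 of the 11 were lower with Ant-134. Higher calls were 2 of 79, or 2.53%, against 1.49% of all genes, and lower calls were 11.4% against 2.69%. The lists were chosen with earlier results of these data known, so these shares are a description and not a test. The lower calls include the blood-cell genes Nckap1l, Was, Hcls1, Rac2, Vav1 and Dock2. All 20 microglial markers were lower too, and their part in these calls was not tested. The count was 7 without Ant-134 mouse 1 or Scr mouse 1, and 6 without Ant-134 mouse 3 or Scr mouse 3. The balance of directions varied with the processing and with single mice. There were 4 higher and 6 lower calls in limma on log2(FPKM + 1) and 6 higher and 7 lower in edgeR without Ant-134 mouse 5. Without Ant-134 mouse 3 or Scr mouse 3, edgeR gave 0 higher and 6 lower calls. The smallest adjusted p value in edgeR among the 79 was 0.987, and the median log2 fold change was 0.026. All calls named in the next paragraphs are therefore unadjusted.

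**Figure D5:**
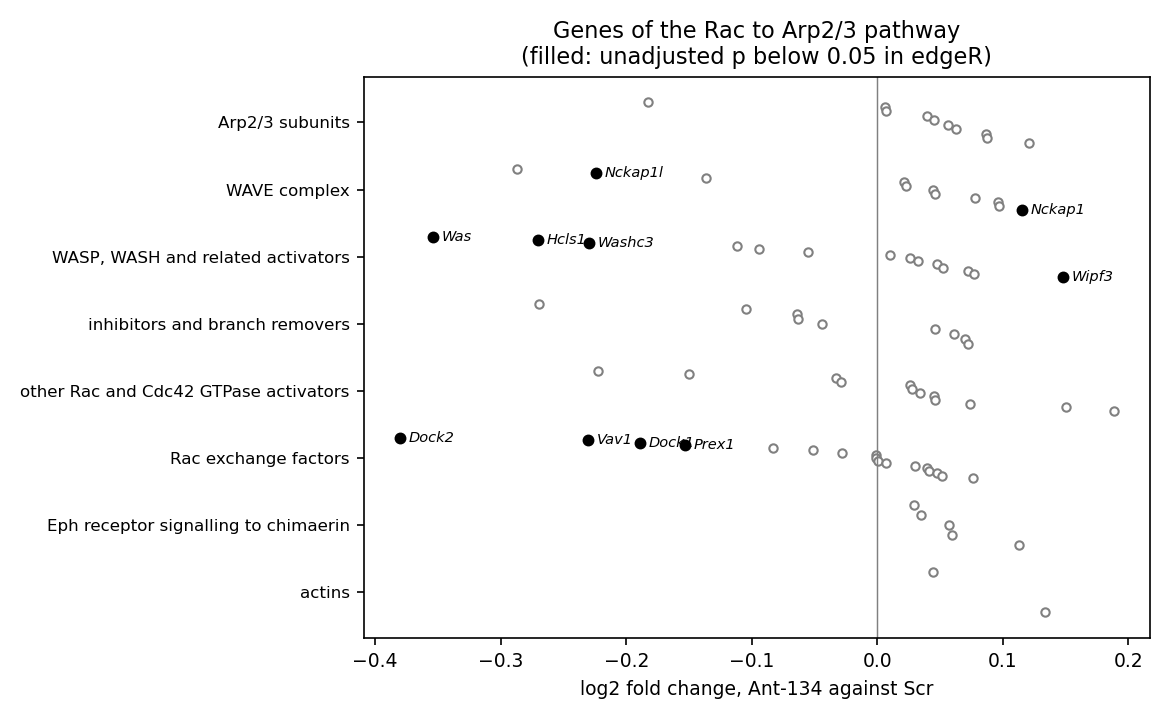
Log2 fold change of every gene in the Arp2/3 subunit list and in 7 of the 8 lists of regulators, 1 point per gene, filled where the unadjusted p value in edgeR was below 0.05. The filled points are 2 above 0 and 8 below it, Rac2 being in the list not drawn, and Arpc2 is drawn unfilled because it was chosen on its value.

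The WAVE complex, which relays Rac activity to Arp2/3, gave 1 higher and 1 lower call among its 11 genes. Nckap1, the scaffold subunit found in most cells including neurons, had 660 ± 35.4 CPM with Ant-134 and 609 ± 30.5 with Scr, a log2 fold change of 0.12 with an unadjusted edgeR p of 0.0345. Its blood-cell counterpart Nckap1l went the other way, with 20.4 ± 2.54 against 23.9 ± 2.36 CPM, a log2 fold change of -0.22 and an unadjusted edgeR p of 0.027. Both groups overlapped for each gene. Brk1, the smallest and per length the most abundant subunit, had 0.096 with an unadjusted edgeR p of 0.0518.

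Of the 14 genes of the WASP and WASH families and related activators, 1 was higher and 3 were lower. Wipf3, a WASP-interacting protein, had 452 ± 35.5 against 408 ± 22.7 CPM, a log2 fold change of 0.15 and an unadjusted edgeR p of 0.0245. Was, the blood-cell member of the family, was low throughout, at 2.77 ± 0.508 against 3.56 ± 0.425 CPM or 67 to 133 counts per library, with a log2 fold change of -0.35 and an unadjusted edgeR p of 0.0409. Hcls1, the cortactin relative of blood cells, had a log2 fold change of -0.27 with an unadjusted edgeR p of 0.00965, whereas cortactin itself, Cttn, had 0.077 with 0.0725. Washc3, a subunit of the WASH complex that builds branched actin on endosomes, had 10.4, 10.5, 9.22, 9.66 and 10.3 CPM with Ant-134 and 11.4, 11.9, 12.4 and 11.2 with Scr. The groups did not overlap for Washc3, as for 0.895% of all genes in this direction, and the log2 fold change was -0.23 with an unadjusted edgeR p of 0.0105.

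The 9 inhibitors and branch removers gave 0 calls in edgeR, with a median log2 fold change of -0.044. Coro1a, a coronin of blood cells and neurons, had -0.044 and Coro2b, a coronin abundant in brain, had 0.072. Rac2, the Rac form of blood cells, was called lower, with 13.2 ± 1.62 against 15.5 ± 1.07 CPM, a log2 fold change of -0.24 and an unadjusted edgeR p of 0.0234. Cdc42 had 0.019 and Pak1, a kinase activated by Rac and Cdc42, had 0.063, both without a call.

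Regulators of Rac were taken by class. The other 12 GTPase-activating proteins of Rac and Cdc42, the class of Chn1, gave 0 calls in edgeR and a median log2 fold change of 0.031, and the most abundant of them per length, Abr and Srgap3, had 0.045 and 0.034. Of the 17 genes of Rac exchange factors, which activate Rac, and of their Elmo partners, 4 were lower and 0 higher. Prex1, which acts downstream of G protein-coupled receptors, had 131, 143, 131, 135 and 131 CPM with Ant-134 and 149, 146, 158 and 144 with Scr. The groups did not overlap, and Prex1 had a log2 fold change of -0.15 with an unadjusted edgeR p of 0.00316, the smallest among all 79 genes.

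The other 3 exchange factors called were Dock2, Vav1 and Dock1. Dock2, which is known from blood cells, had 7.60 ± 1.43 against 9.90 ± 1.60 CPM, a log2 fold change of -0.38 and an unadjusted edgeR p of 0.0152. Vav1, also of blood cells, had a log2 fold change of -0.23 with an unadjusted edgeR p of 0.0231, and Dock1, a widely expressed relative of Dock2, had -0.19 with 0.0339. Elmo2, a partner of the Dock proteins, and Kalrn, the exchange factor kalirin of dendritic spines, had 0.076 and 0.047 without a call. The microglial marker sums given above were lower in the Ant-134 mice, and their part in these calls was not tested.

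The 5 genes of the EphA4 route to chimaerin all had log2 fold changes above 0 and gave 0 calls in edgeR, with 0.11 and an unadjusted edgeR p of 0.200 for Epha4, the receptor, and 0.057 with 0.505 for Efnb3, one of its ligands. The 2 cytoplasmic actins, Actb and Actg1, had 0.13 and 0.044 with 0 calls, and since their sequences are nearly identical, reads may be divided between them with error.

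Calls in the regulator lists were also read in fits that left out single mice. These genes were named because they were called in the same mice, so keeping a call is no sign of stability. When each mouse was left out in turn, Washc3, Hcls1 and Prex1 kept an unadjusted p value below 0.05 in 9 of 9 edgeR fits and Dock2 in 8 of 9. Vav1 and Wipf3 kept it in 6 of 9 and Nckap1l and Rac2 in 5 of 9. Nckap1 and Was kept it in 4 of 9 and Dock1 in 3 of 9. In both limma fits Dock1 and Dock2 were not called, with unadjusted p values of 0.0651 and 0.0562 on log2(FPKM + 1), and Nckap1l was not called on that scale at 0.0508. The log2 fold change of Dock2 ranged from -0.50 to -0.27 over these fits, and that of Nckap1 from 0.085 to 0.15.

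Mice within a group also differed, and the genes most like Arpc2 and Chn1 in this respect were sought among the 10615 genes with a mean of at least 10 CPM, after the group means had been removed. Over the 9 mice, Arpc2 was most like Cdan1 (Pearson r = 0.98), Ermard (0.97) and Hspa2 (0.95). Chn1 was most like Epha7 and Rasl11b (0.96 each) and Tmem67 (0.94). These are the highest of 10615 correlations over libraries that share composition and depth, and they are descriptions without a test.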

How the data were processed

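Hippocampal RNA-seq libraries of 5 Ant-134 and 4 Scr mice were used, with groups and replicate numbers from the labels. The submitters' processing notes name CASAVA 1.8, HISAT2 2.0.5 and featureCounts 1.5.0-p3 with mm10 (GRCm38), after poly-A selection. Strand use in counting is not given in the sources used here, and paired-end fragments were not marked with molecular identifiers, so counting error is a lower bound of technical error. The authors deposited raw counts per gene and FPKM values, which scale the counts to gene length and library total, for 54532 genes. Columns of other samples numbered 0.

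The comparison of counts was made in edgeR 4.0.16 (R 4.3.3), using filterByExpr with a minimum count of 10 (19782 genes tested of 37454 with a count), TMM scaling and the robust quasi-likelihood test without covariates. A call is an unadjusted p value below 0.05, the threshold of the study, and adjustment was by Benjamini-Hochberg over all genes tested. Levels in CPM use the TMM libraries, and the standard error was derived from the F statistic. The script was tested on simulated data. Shares of alternative forms were compared with exact permutation tests.

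Alternatives were DESeq2 1.42.0 without a filter, its size factors in edgeR, no filter, a minimum of 10 counts in all samples, limma 3.58.1 with a pseudocount of 1 or of 0.1 on log2 FPKM (genes averaging 0.1 FPKM or more), a replicate block, and leaving out each mouse. FPKM fold changes with a pseudocount understate changes of low genes. Chi-square per gene between libraries of a group was 8.46 to 21.3, so none is a duplicate.

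The members and all lists were chosen with earlier results of these data known. Named genes were the 10 members, Actr3b, from each list of regulators the called genes and the 2 with the highest mean FPKM, and the 3 genes most correlated with Arpc2 and with Chn1. Ube3a, Chn2, Neurod6, Wfs1, the genes overlapping members and the members of a list singled out in a comparison lie outside this rule and were named after their values were seen. miR-134 sites were searched in 3' UTRs of GENCODE M21, whose gene positions matched the tables, and the miRNA is from RefSeq. Protein sequences were not used here. The summary of 1 list of regulators is not reported here.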

Additional observations from a re-analysis of the deposited data

Results flagged for a closer look

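Among 44 groups of values examined, 2 held a mouse far from the rest of its group, where 2.2 are expected by chance at 1 in 20. Chn1 in Scr mouse 3 was 581 CPM, and the other 3 Scr mice had 627 to 634. Chn2 in Ant-134 mouse 5 was 23.7 CPM, and the other 4 Ant-134 mice had 26.5 to 27.6. Without Scr mouse 3 the log2 fold change of Chn1 was 0.085, against 0.11 with it.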

How the results depend on the processing

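Arpc2 and Chn1 were chosen as raised in these libraries, so their direction in refits is no sign of stability. Their log2 fold changes were 0.11 to 0.13 and 0.11 to 0.12 in the other settings and 0.10 to 0.15 and 0.085 to 0.13 without single mice. Over all genes tested, edgeR called 827 of 19782 and DESeq2 1027 of 37435. Limma called 1083 of 23670 on log2(FPKM + 1) and 1101 of 23670 on log2(FPKM + 0.1). Of the 8 subunits not chosen on their values, 0 were called in edgeR and 2 in DESeq2 (Arpc5 higher and Arpc1b lower). In limma 1 was called on log2(FPKM + 1) and 1 on log2(FPKM + 0.1) (Arpc5). When a mouse was left out, 0 to 2 were called in edgeR. These were Arpc1b without Ant-134 mouse 1 or Scr mouse 4 and Arpc5 without Ant-134 mouse 4 or Scr mouse 4. The cause was not tested. Actr3 turned to -0.0057 with the replicate block and ranged from -0.0054 to 0.020, and Arpc4 from -0.0043 to 0.017, when a mouse was left out. The Arpc1b share difference ranged from -2.47 to -1.58 percentage points without single mice, with an exact permutation p value of 0.0286 without Ant-134 mouse 1, and was -3.07 from raw counts, while that of Arpc5l ranged from -0.46 to 0.20, above 0 only without Scr mouse 2. The count of regulators called was 10 to 14 in other settings and 6 to 13 without single mice, down to 7 without Ant-134 mouse 1 or Scr mouse 1 and 6 without Ant-134 mouse 3 or Scr mouse 3. Of all genes, 827 were called, 1775 with no filter, which tests 37454 genes, and 629 to 973 without single mice. Sites of miR-134 were in 1 member with the 8-base form alone and in 1 member with the longest 3' UTR. Pairing by replicate number was not seen. Correlations of same-numbered mice were -0.15, -0.071, -0.048 and 0.053, and 0 of 4 matched their own number best. With so few mice and the group means removed, this check cannot exclude pairing. The replicate block gave 808 calls, 0 among the 8 subunits and -0.16 for Arpc1b, against -0.18 without it. With the block 5 regulators were called higher and 6 lower, and Was, Vav1, Dock1 and Dock2 were not called.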
